A study of Mus musculus with 8 samples.

Results

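The lysosome is the acidic compartment in which cells break down proteins, glycans, lipids and nucleic acids, and its genes were followed here in mouse blastocysts cultured with or without a miR-21-5p agomir. The members were the genes whose pathway annotation in the deposited table held the entry Lysosome, with 1 gene left out by the rule, which gave 134 of the 22013 genes. Each of the 8 libraries came from a pool of 5 blastocysts from wild-type ICR mice, produced by in vitro fertilisation and cultured in KSOM, an embryo culture medium. Eggs came from females of 6 to 8 weeks and sperm from males of 8 to 10 weeks. The control group of 4 libraries, called blank control in the labels, received vehicle without any oligonucleotide. The agomir group of 4 libraries was kept in 50 nM miR-21-5p agomir, a chemically modified double-stranded mimic of the microRNA, from after fertilisation until the blastocyst stage, about 75 h later. The labels give 1 batch and no group with an unrelated oligonucleotide, so the effect of this sequence and that of any oligonucleotide cannot be told apart. Whether the pools had separate parents was not stated, so the p-values below measure the spread between these pools. RNA was measured in whole blastocysts, in which fewer cells of a type and less RNA per cell cannot be told apart.

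Lysosomal enzymes are made in the secretory pathway, tagged with mannose 6-phosphate in the Golgi, and carried in clathrin-coated vesicles to endosomes, where a proton-pumping ATPase supplies the acid they need. Cathepsins cut proteins, glycosidases and sulfatases take apart glycans, and lipases with small activator proteins handle membrane lipids. In the early embryo these enzymes degrade maternal material, and the trophectoderm, the outer epithelium of the blastocyst, takes up and digests material from outside.

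Both marker genes of the lysosome, Ctsl and Lamp1, had reads in every library. Ctsl, which encodes the cysteine endopeptidase cathepsin L, had 203 ± 53.2 FPKM in the controls (SD, n = 4). Lamp1, a heavily glycosylated protein of the lysosomal limiting membrane, had 331 ± 65.8 FPKM. FPKM are fragments per kilobase of transcript, scaled to library depth by the authors, and are used here to compare genes with each other. CPM, the share of a library's counts that a gene takes, scaled between libraries by the trimmed mean of M values, are used to compare libraries. Library totals ran from 12246102 to 23147449 counts, and 1 CPM stood for 12.9 to 21.5 counts. In a principal component analysis control 2 stood apart on the first component, which held 24.98% of the variance, and agomir 3 on the second, with 21.9%.

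Lysosomal genes were well represented among the abundant transcripts of the control blastocysts. At least 100 FPKM was reached by 18 of the 134 members (13.4%) and by 1126 of all 22013 genes (5.12%). At least 10 FPKM was reached by 60 members (44.8%) and by 21.0% of all genes, while 36 members (26.9%) were under 1 FPKM. The highest level was that of Cd63, a tetraspanin of endosomes and lysosomes, with 2726 ± 342 FPKM, place 40 among all genes. It was followed by Atp6v0c, a subunit of the proteolipid ring of the proton pump, with 1601 ± 260.3 FPKM, and by Gm2a, the activator protein that lifts gangliosides out of the membrane for digestion, with 1098 ± 394 FPKM. Atp6v0b, a further ring subunit, had 862 ± 48.7 FPKM. Psap, the precursor of the saposins that present sphingolipids to hydrolases, had 268 ± 41.99 FPKM. Among the proteases Ctsl led, ahead of Ctsc, the dipeptidyl peptidase that activates other proteases by trimming them, with 126 ± 33.95 FPKM. The 8 sulfatase genes were low throughout, with 1.69 ± 0.646 FPKM for Galns and 3.05 ± 0.865 FPKM for Sumf1.

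A total of 19 members had too few reads, or reads in too few libraries, to be tested. They were 8 cathepsins (Ctse, Ctsg, Ctsj, Ctsk, Ctsm, Ctso, Ctss and Ctsw), 5 glycosidases of the hyaluronidase family (Hyal3, Hyal4, Hyal5, Hyal6 and Spam1), Abcb9, Lamp3, Dnase2b, Psapl1, Napsa and Atp6v0d2. Of these 5 had no read in any library, and the highest value of any was 5.40 CPM. The 8 tested cathepsins were Ctsa, Ctsb, Ctsc, Ctsd, Ctsf, Ctsh, Ctsl and Ctsz, most of them made by many cell types. Ctsk is best known from osteoclasts and Ctsg from neutrophils.

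Many lysosomal genes share a promoter element bound by TFEB and related factors, a palindrome built on CACGTG, and the promoters are shown because more of the members than of other genes held it. Promoters from 250 bases before to 50 bases after the gene start (RefSeq, GRCm38.p6) were found for 105 of the 134 members. On either strand CACGTG stood in 23 of them (21.9%) against 2187 of the 27025 genes with a promoter (8.09%). The longer TCACGTG, which contains it, stood in 20 (19.0%) against 4.29% of all genes. The full palindrome TCACGTGA, which contains both, stood in 9 (8.57%) against 1.12%. Among genes with enough reads to be tested, 21.98% of 91 members and 7.15% of 9667 genes held TCACGTG. The 9 genes with TCACGTGA have these windows of 30 bases, read along the gene's strand with that palindrome in capitals.
Ctsa, chr2:164833749-164833778, plus strand: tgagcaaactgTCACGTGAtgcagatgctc
Ctsa, chr2:164833766-164833795, plus strand: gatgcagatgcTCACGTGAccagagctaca
Ctsd, chr7:142387908-142387937, minus strand: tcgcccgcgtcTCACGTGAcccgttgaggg
Gla, chrX:134601182-134601211, minus strand: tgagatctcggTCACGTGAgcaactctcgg
Gla, chrX:134601215-134601244, minus strand: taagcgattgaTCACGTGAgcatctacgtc
Cd164, chr10:41519401-41519430, plus strand: cgccgggctgcTCACGTGAccggcgcgcgc
Cln3, chr7:126583340-126583369, minus strand: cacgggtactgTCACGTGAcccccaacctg
Mcoln1, chr8:3500462-3500491, plus strand: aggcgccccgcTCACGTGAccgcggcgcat
Atp6v0d1, chr8:105566050-105566079, minus strand: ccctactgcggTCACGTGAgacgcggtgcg
Gnptg, chr17:25240120-25240149, minus strand: ccggctgtcacTCACGTGAccgtgagaccc
Sumf1, chr6:108185577-108185606, minus strand: agcaccacaggTCACGTGAtctccatgggt
They belong to 6 of the 8 classes: Ctsa and Ctsd are proteases, Gla is a glycosidase, Cd164, Cln3 and Mcoln1 encode membrane proteins, Atp6v0d1 a pump subunit, Gnptg a subunit of the enzyme that makes the mannose 6-phosphate tag, and Sumf1 the activator of sulfatases. Lamp1 held TCACGTG, and Ctsl held the core CACGTG alone. None of the 13 promoters of other hydrolases and cofactors that were found held TCACGTG. In control FPKM the 20 tested members with TCACGTG had a median of 20.5 and the 71 with a promoter lacking it 11.6. Their differences between the groups were alike in sign count: 9 were higher and 11 lower with agomir among the former, 31 and 40 among the latter, and the median log2 fold changes were -0.03 and -0.06. A match describes the letters of the promoter and does not show that a factor bound there.

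The agomir's microRNA is also shown, because its seed, bases 2 to 8, can be looked for in the members' transcripts. The labels do not give the sequence of the oligonucleotide used, and the mature mouse microRNA in RefSeq (GRCm38.p6) reads as follows, with the seed in capitals.
mmu-miR-21a-5p: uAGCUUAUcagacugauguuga
The 7 bases that pair with the seed, ATAAGCT, were searched on the sense strand of the longest 3′ UTR of each gene in the GENCODE M21 annotation of GRCm38. They stood in 5 of the 115 tested members (4.35%) and in 960 of 12224 tested genes (7.85%). The 2 matches of Ctsl lie in an annotated 3′ UTR of 4761 bases, longer than the 1866 bases that its counts and FPKM imply for the whole transcript measured, and are not shown. The stretches of the other 4 are given with the match in capitals, to show the letters that match the seed.
Galc, 3′ UTR base 719 of 1647: atttcccccatATAAGCTggtgccgtaggc
Mfsd8, 3′ UTR base 1263 of 1411: atgaaaatgaaATAAGCTtgtgaattttaa
Scarb2, 3′ UTR base 2155 of 2932: ctaataaattgATAAGCTagtgcatactaa
Sumf1, 3′ UTR base 1282 of 1448: gccagttggggATAAGCTtatattggtacc
The log2 fold change with agomir was -0.34 for Ctsl and -0.36 for Galc, the galactosylceramidase. It was -0.30 for Scarb2, the receptor that carries glucocerebrosidase, 0.19 for Mfsd8, a lysosomal transporter, and -0.02 for Sumf1. The smallest edgeR adjusted p of the 5 was 0.819 (SE of these values from 0.18 to 0.36).

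The comparison of agomir with control libraries asked whether the microRNA altered the lysosomal transcripts of the blastocyst. Of the 115 tested members 0 passed an adjusted p of 0.05 (edgeR, quasi-likelihood, Benjamini-Hochberg over all 12366 genes), as did 0% of all genes. The smallest edgeR adjusted p was 0.656 among the members and 0.299 among all genes. DESeq2, which called 35 genes (0.244%), called 0 members, with a smallest adjusted p of 0.173, and limma-voom and limma on FPKM also called 0. At an unadjusted p under 0.05 in edgeR stood 11 members (9.57%), against 6.38% of all genes. Of these 5 were higher with agomir (4.35%, against 2.64%): Pla2g15, Ap1s1, Ap1m2, Ap1m1 and Laptm5. The other 6 were lower (5.22%, against 3.74%): Ctsf, Tcirg1, Arsb, Idua, Gaa and Slc17a5. When only library totals were used for scaling, 3 were higher and 10 lower. With that scaling 6.48% of all genes stood at this p in either direction, and 63.9% of all genes lay below 0. The 2 groups did not overlap for 4 members (3.48%, against 3.89% of all genes): Gaa, Naglu, Tcirg1 and Arsb, all lower with agomir, against 2.47% of all genes that were apart and lower and 1.42% that were apart and higher. With library totals alone 8 members were apart, all lower: Naglu, Tcirg1 and Arsb again, with Gusb, Hyal1, Slc17a5, Npc2 and Atp6v0a1, while Gaa overlapped. The share of all genes apart with that scaling was not counted, so these 8 have no background to be read against.

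Over the 115 tested members 50 values were higher and 65 lower with agomir, so that 56.5% lay below 0 where 49.4% of all genes did. The median log2 fold change was -0.06, against 0.0048 for all genes, and the middle range of the members ran from -0.29 to 0.16. With library totals alone the shares below 0 were 70.4% of members and 63.9% of genes, since that scaling moved the median of all genes to -0.11, and the members' median stood at -0.19. The median minus that of all genes was -0.06 as scaled here and -0.08 with library totals. By class the median was -0.31 for the 8 tested sulfatases, -0.29 for 8 cathepsins, -0.20 for 19 glycosidases, -0.18 for 2 other proteases, -0.11 for 13 proton pump genes, -0.08 for 13 other hydrolases and cofactors, -0.03 for 23 membrane proteins and 0.06 for 29 sorting and coat genes. Over the other settings the sulfatase median ran from -0.43 with library totals to -0.16 with limma-voom, and the glycosidase median from -0.32 with library totals to -0.09 with a filter at 5 CPM. Those of sulfatases, cathepsins, glycosidases and the pump lay below 0 under each of the 19 other settings tried. These settings reuse the same libraries, and some put the median of all genes below 0 as well. The filter at 5 CPM left only 2 sulfatases. The median of sorting and coat genes lay below 0 in 4 of these 19, with library totals at -0.06 and upper-quartile scaling at -0.02 among them. The classes differ in size and abundance, and no test between them was made.

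**Figure D1:**
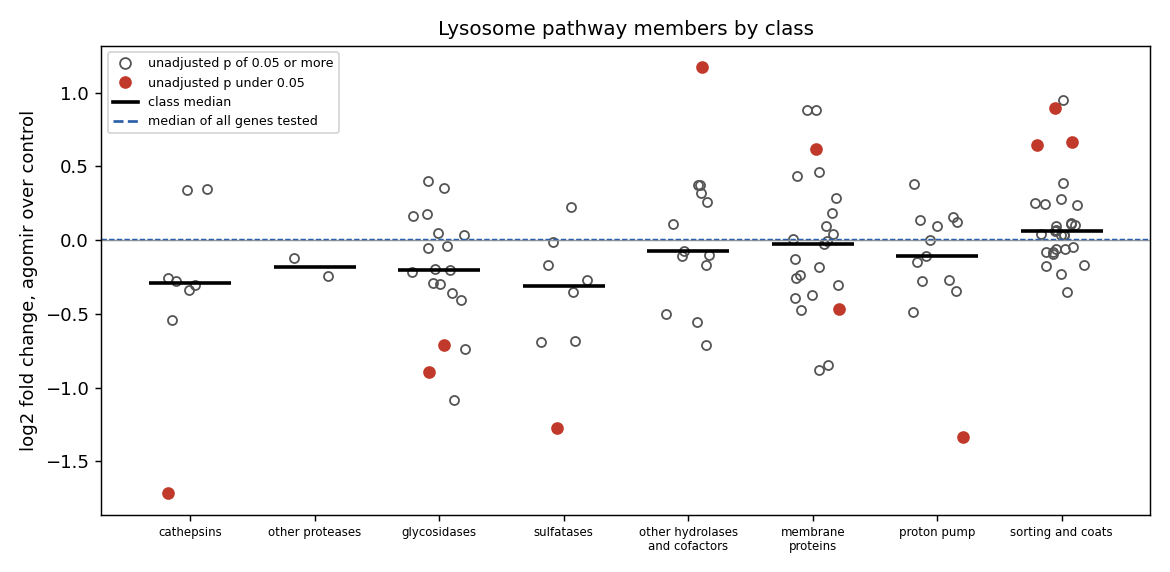
Log2 fold change (agomir over control, y axis) of each of the 115 tested members, 1 point a gene, by class on the x axis; the bar in each class is its median and the dashed line the median of all 12366 genes; red points have an unadjusted edgeR p under 0.05. The points of sulfatases, cathepsins and glycosidases lie mostly below 0, those of sorting and coat genes mostly above (with library totals as the scaling 18 of these 29 lie below), and Ctsf (-1.72) and Pla2g15 (1.17) are the outermost.

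Cathepsins as a class stood at 1203 ± 119 summed CPM in the controls and 1115 ± 21.5 with agomir (SD, n = 4 each), ranges of 1088 to 1369 and 1094 to 1145 that overlap. Of the 8 tested, 2 were higher and 6 lower. Ctsl had 399, 444, 281 and 317 CPM in the controls and 201, 259, 349 and 333 CPM with agomir, in the order of libraries 1 to 4 in each group. The 3 lowest values included 2 agomir libraries and control 3, and the groups overlapped. The means were 360.2 ± 74.4 against 285 ± 68.4 CPM (SD, n = 4 each), a log2 fold change of -0.34 (SE 0.22; from -0.44 without agomir 3 to -0.20 without agomir 1) with an edgeR adjusted p of 0.827. Here and below, a range beside the SE is that of the log2 value when 1 library at a time was left out, given where it moved by over 1.5 times. Ctsc had 279, 227, 444 and 272 CPM in the controls and 357, 418, 404 and 377 CPM with agomir. Control 3 held the highest value of all and the other controls the lowest 3. For Ctsc the log2 fold change of 0.35 (SE 0.21; from 0.23 without control 2 to 0.59 without control 3) had an edgeR adjusted p of 0.819. The ratio of Ctsl to Ctsc in FPKM, chosen after the values were seen, was 1.99, 2.51, 0.862 and 1.55 in the controls and 0.772, 0.823, 1.12 and 1.18 with agomir, so that control 3 lay among the agomir libraries.

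Ctsd, an aspartic protease, had 143, 148, 167 and 133 CPM in the controls and 190.2, 99.1, 88.9 and 99.8 CPM with agomir. Agomir 1 was the highest of the 8 libraries and the other 3 agomir libraries were the lowest. The means of 148 ± 14.5 against 119 ± 47.4 CPM (SD, n = 4 each) gave a log2 fold change of -0.31 (SE 0.24; from -0.62 without agomir 1 to -0.18 without agomir 3) with an edgeR adjusted p of 0.848. Ctsf, a widely expressed cysteine cathepsin, was rare, with 0.853, 1.49, 4.51 and 1.14 CPM in the controls and 1.05, 0.435, 0.303 and 0.629 CPM with agomir. Control 3 alone held 43.3% of its summed CPM and the groups overlapped. For Ctsf the log2 fold change of -1.72 (SE 0.62; from -2.11 without agomir 1 to -0.92 without control 3) had an edgeR unadjusted p of 0.0165 and an edgeR adjusted p of 0.678.

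**Figure D2:**
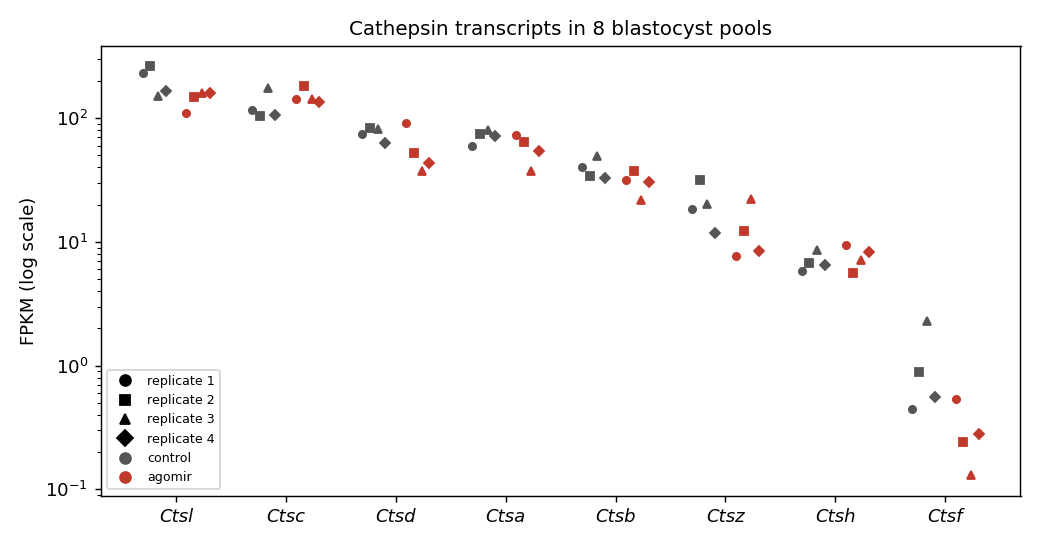
FPKM (y axis, log scale) of the tested cathepsins on the x axis, 1 point a library, controls in grey and agomir libraries in red side by side, with marker shape giving the replicate. Ctsl and Ctsc are the highest at means of 203 and 126 FPKM in the controls, and the 2 groups' points overlap for every cathepsin shown.

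Other proteases were Lgmn, the asparaginyl endopeptidase legumain, which processes cathepsins, and Tpp1, which removes tripeptides, beside the untested Napsa. Lgmn had 82.3, 74.4, 171 and 69.4 CPM in the controls and 109, 72.7, 76.1 and 78.5 CPM with agomir. Control 3 stood well above the other 7 libraries. For Lgmn the log2 fold change of -0.24 (SE 0.28; from -0.39 without agomir 1 to 0.17 without control 3) had an edgeR adjusted p of 0.901. Tpp1 had 152, 145, 142 and 158 CPM in the controls and 186, 114, 86.2 and 163 CPM with agomir. The 4 controls lay close together and the agomir libraries on both sides of them. For Tpp1 the log2 fold change of -0.12 (SE 0.22; from -0.30 without agomir 1 to 0.05 without agomir 3) had an edgeR adjusted p of 0.946.

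Glycosidases summed to 1039 ± 195 CPM in the controls and 1029 ± 179 with agomir (SD, n = 4 each), a difference below either SD. Of the 19 tested, 6 were higher and 13 lower, and 2 had groups that did not overlap, beside 3.89% of all genes. Gaa, the acid alpha-glucosidase that breaks down glycogen, had 20.01, 23.4, 16.6 and 14.1 CPM in the controls and 13.7, 13.6, 8.06 and 9.78 CPM with agomir. Every agomir library lay below every control, with control 4 and agomir 1 closest. With library totals as the scaling the groups of Gaa overlapped. The means of 18.5 ± 4.08 against 11.3 ± 2.83 CPM (SD, n = 4 each) gave a log2 fold change of -0.71 (SE 0.25), with an edgeR unadjusted p of 0.0135 and an edgeR adjusted p of 0.678. Naglu, an N-acetylglucosaminidase of heparan sulfate breakdown, had 0.620, 0.650, 1.21 and 0.596 CPM in the controls and 0.301, 0.435, 0.424 and 0.290 CPM with agomir. The groups did not overlap, at levels of at most 1.21 CPM. For Naglu the log2 fold change of -1.08 (SE 0.53) had an edgeR adjusted p of 0.793. Idua, the iduronidase that acts on heparan and dermatan sulfate, had 2.17, 4.60, 2.56 and 1.89 CPM in the controls and 1.61, 1.98, 1.27 and 1.16 CPM with agomir. Control 2 was the highest and only agomir 2 exceeded a control. For Idua the log2 fold change of -0.90 (SE 0.39; from -1.05 without agomir 2 to -0.55 without control 2) had an edgeR unadjusted p of 0.0405 and an edgeR adjusted p of 0.763.

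The abundant glycosidases had groups that overlapped. Gla, the alpha-galactosidase whose promoter held TCACGTGA in 2 places, had 190.1, 181, 303 and 240.5 CPM in the controls and 324, 236, 204 and 269 CPM with agomir. Control 3 and agomir 1 were high and the groups overlapped. For Gla the log2 fold change of 0.17 (SE 0.21; from 0.05 without agomir 1 to 0.35 without control 3) had an edgeR adjusted p of 0.908. Hexa, which takes part in the breakdown of gangliosides, had 106, 87.8, 195 and 132 CPM in the controls and 157, 101, 107 and 136 CPM with agomir. Control 3 was the highest and the groups overlapped. For Hexa the log2 fold change of -0.06 (SE 0.25; from -0.20 without control 2 to 0.21 without control 3) had an edgeR adjusted p of 0.976.

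Sulfatases, which remove sulfate from glycosaminoglycans and sulfolipids, summed to 43.5 ± 5.10 CPM in the controls and 36.1 ± 4.01 with agomir (SD, n = 4 each), with ranges of 38.9 to 50.2 and 31.99 to 40.5. Of the 8 tested, the activator Sumf1 included, 7 were lower and 1 higher. Arsb, arylsulfatase B, had 1.86, 3.67, 1.81 and 2.43 CPM in the controls and 1.76, 1.21, 0.485 and 0.581 CPM with agomir. The highest agomir value lay just below the lowest control value, so the groups did not overlap. The means of 2.44 ± 0.863 against 1.01 ± 0.594 CPM (SD, n = 4 each) gave a log2 fold change of -1.27 (SE 0.48), with an edgeR unadjusted p of 0.0217 and an edgeR adjusted p of 0.693. Arsa, which acts on sulfatides, had 1.86, 4.92, 3.26 and 2.09 CPM in the controls and 2.16, 2.22, 1.94 and 1.26 CPM with agomir. Control 2 was the highest and the groups overlapped. For Arsa the log2 fold change of -0.68 (SE 0.39; from -0.85 without control 1 to -0.35 without control 2) had an edgeR adjusted p of 0.810. Galns, a sulfatase of keratan sulfate breakdown, had 2.25, 5.57, 4.19 and 4.47 CPM in the controls and 2.21, 3.33, 4.72 and 2.71 CPM with agomir. Its lowest values came from control 1 and agomir 1, and the log2 fold change of -0.35 (SE 0.35; from -0.58 without agomir 3 to -0.17 without control 2) had an edgeR adjusted p of 0.882. Sumf1, which makes the formylglycine that every sulfatase needs for catalysis, had 7.06, 9.85, 6.09 and 7.05 CPM in the controls and 6.28, 7.78, 11.1 and 4.60 CPM with agomir. Agomir 3 was the highest and agomir 4 the lowest of the 8 libraries. The means were 7.51 ± 1.62 against 7.45 ± 2.79 CPM (SD, n = 4 each), and the log2 value, -0.02 (SE 0.30), was on the other side of 0 with DESeq2 and with RLE scaling.

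Other hydrolases and cofactors summed to 6231 ± 1976 CPM in the controls and 7693 ± 2232 with agomir, most of it from Gm2a. Gm2a had 2939.6, 2806, 5595 and 6411 CPM in the controls and 8561, 4926, 3359 and 6186 CPM with agomir. Agomir 1 was the highest and controls 1 and 2 the lowest, so that the spread within each group exceeded the difference between them. For Gm2a the log2 fold change of 0.38 (SE 0.34; from 0.12 without agomir 1 to 0.61 without control 4) had an edgeR adjusted p of 0.867. Pla2g15, a lysosomal phospholipase, had the largest positive value of the members. It had 30.2, 44.3, 29.1 and 44.6 CPM in the controls and 107, 53.2, 141 and 32.96 CPM with agomir. Agomir 1 and agomir 3 stood above the rest, while agomir 4 lay among the controls. The means of 37.1 ± 8.55 against 83.5 ± 49.5 CPM (SD, n = 4 each) gave a log2 fold change of 1.17 (SE 0.38), with an edgeR unadjusted p of 0.00943, an edgeR adjusted p of 0.678 and one of 0.173 in DESeq2, within a range of 0.173 to 0.999 over all 19 alternatives. Leaving out single libraries gave values of 0.80 to 1.44. Dnase2a, the acid endonuclease that digests engulfed DNA, had 32.6, 32.5, 22.4 and 47.9 CPM in the controls and 21.7, 17.7, 18.2 and 34.7 CPM with agomir. Only agomir 4 exceeded a control. For Dnase2a the log2 fold change of -0.55 (SE 0.27; from -0.81 without agomir 4 to -0.34 without control 4) had an edgeR adjusted p of 0.793. Lipa, the acid lipase for cholesteryl esters, had 1.86, 1.25, 4.42 and 2.33 CPM in the controls and 1.61, 0.966, 1.57 and 1.89 CPM with agomir. Control 3 was the highest and the groups overlapped. For Lipa the log2 fold change of -0.71 (SE 0.44; from -0.93 without control 2 to -0.26 without control 3) had an edgeR adjusted p of 0.825.

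Psap and Smpd1, of sphingolipid breakdown, had groups that overlapped. Psap had 538, 733, 667 and 710.3 CPM in the controls and 835, 658, 1093 and 588 CPM with agomir. Agomir 3 was the highest, and both the highest and the second highest values were from agomir libraries. For Psap the log2 fold change of 0.26 (SE 0.22; from 0.07 without agomir 3 to 0.38 without agomir 4) had an edgeR adjusted p of 0.856. Smpd1, the acid sphingomyelinase, had 300.0, 312, 323 and 410.4 CPM in the controls and 450.1, 286, 183 and 329 CPM with agomir. Agomir 1 and agomir 3 were the highest and the lowest of the 8 libraries. For Smpd1 the log2 fold change of -0.11 (SE 0.24; from -0.34 without agomir 1 to 0.08 without agomir 3) had an edgeR adjusted p of 0.955.

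Membrane proteins summed to 5210 ± 882 CPM in the controls and 5112 ± 624 with agomir (SD, n = 4 each), ranges of 3889 to 5718 and 4333 to 5646. Of the 23 tested, 10 were higher and 13 lower, and none had groups that did not overlap. Cd63 had 3193, 2182, 2829 and 2976 CPM in the controls and 3121, 2179.9, 2921 and 2765 CPM with agomir. Control 2 and agomir 2 were the lowest of their groups, and the means were 2795 ± 435 against 2747 ± 405 CPM (SD, n = 4 each). For Cd63 the log2 fold change of -0.03 (SE 0.20; from -0.12 without control 2 to 0.07 without agomir 2) had an edgeR adjusted p of 0.990. Lamp1 had 674, 477, 830.2 and 889.7 CPM in the controls and 585, 648, 422 and 753 CPM with agomir. Control 4 was the highest and agomir 3 the lowest of the 8 libraries. The means of 718 ± 184 against 602 ± 139 CPM (SD, n = 4 each) gave a log2 fold change of -0.25 (SE 0.24; from -0.40 without control 2 to -0.11 without agomir 3), with an edgeR adjusted p of 0.870. Litaf, which acts in the sorting of endosomal proteins, had 356, 314, 592 and 469 CPM in the controls and 497, 442, 530.1 and 642 CPM with agomir. The groups overlapped, and its log2 fold change of 0.29 (SE 0.22; from 0.16 without control 2 to 0.48 without control 3) had an edgeR adjusted p of 0.848.

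Among the scarcer membrane proteins, 2 stood at an unadjusted p under 0.05. Laptm5, a lysosomal protein best known from blood cells, had 6.36, 4.50, 7.30 and 8.24 CPM in the controls and 10.6, 12.8, 7.27 and 9.83 CPM with agomir. Agomir 3 was the only agomir library below a control. The means of 6.60 ± 1.60 against 10.1 ± 2.26 CPM (SD, n = 4 each) gave a log2 fold change of 0.62 (SE 0.27), with an edgeR unadjusted p of 0.0398 and an edgeR adjusted p of 0.762. Slc17a5, the sialin that exports sialic acid, had 24.1, 19.8, 24.8 and 22.2 CPM in the controls and 15.01, 17.5, 12.96 and 20.3 CPM with agomir. Agomir 4 was the only agomir library above a control. For Slc17a5 the log2 fold change of -0.47 (SE 0.20) had an edgeR unadjusted p of 0.0353 and an edgeR adjusted p of 0.746. Cd68, a relative of Lamp1 known from macrophages, had 28.8, 20.8, 23.96 and 18.2 CPM in the controls and 20.6, 15.1, 12.7 and 17.6 CPM with agomir. The groups overlapped through control 4 and agomir 1, and the log2 fold change of -0.47 (SE 0.22) had an edgeR adjusted p of 0.783. Entpd4 and Entpd4b, which encode nucleotide-cleaving membrane enzymes, had identical counts in all 8 libraries, so their reads could not be separated and their values are uncertain.

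The 14 proton pump genes in the annotation, of which 13 were tested with 6 higher and 7 lower, summed to 3279 ± 288 CPM in the controls and 3063 ± 593 with agomir, mostly from Atp6v0c and Atp6v0b. Atp6v0c had 1713, 1961, 1491 and 2082 CPM in the controls and 1631, 1122, 1182 and 2045 CPM with agomir. Agomir 2 and agomir 3 were the lowest and agomir 4 was among the highest. For Atp6v0c the log2 fold change of -0.28 (SE 0.23; from -0.46 without agomir 4 to -0.16 without agomir 2) had an edgeR adjusted p of 0.854. Atp6v0b had 763, 739, 902 and 864 CPM in the controls and 1129.7, 865, 638 and 959.8 CPM with agomir. Agomir 1 was the highest and agomir 3 the lowest, and the log2 fold change of 0.14 (SE 0.20; from 0.01 without agomir 1 to 0.27 without agomir 3) had an edgeR adjusted p of 0.924. Atp6v1h, a regulatory subunit of the part that hydrolyses ATP, had 206, 189, 192 and 175 CPM in the controls and 168, 159, 190.0 and 171 CPM with agomir. For Atp6v1h the log2 fold change of -0.15 (SE 0.15) had an edgeR adjusted p of 0.881.

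The large membrane subunit of the pump exists in several forms encoded by separate genes. Tcirg1, the form known from osteoclasts, had 2.56, 5.20, 3.16 and 2.53 CPM in the controls and 1.00, 1.69, 0.969 and 1.65 CPM with agomir. All agomir libraries lay below all controls. The means of 3.36 ± 1.26 against 1.33 ± 0.394 CPM (SD, n = 4 each) gave a log2 fold change of -1.34 (SE 0.38), with an edgeR unadjusted p of 0.00438, an edgeR adjusted p of 0.656 and one of 0.209 in DESeq2, within a range of 0.209 to 0.999 over the 18 alternatives in which it was tested. Leaving out single libraries gave values of -1.47 to -1.04. Atp6v0a1 had 6.20, 3.90, 5.07 and 5.66 CPM in the controls and 2.96, 3.82, 3.69 and 4.36 CPM with agomir. Only agomir 4 exceeded a control, control 2, and the log2 fold change of -0.49 (SE 0.27) had an edgeR adjusted p of 0.810. Atp6v0a4, the form known from kidney epithelium, had 37.9, 39.99, 56.7 and 46.03 CPM in the controls and 50.9, 50.2, 77.6 and 56.9 CPM with agomir. Per length its control level was 14.1 ± 2.24 FPKM. That of Atp6v0a2, a further form, was 3.185 ± 0.805 FPKM, that of Tcirg1 1.89 ± 1.10 FPKM and that of Atp6v0a1 1.58 ± 0.316 FPKM. For Atp6v0a4 agomir 3 was the highest, control 3 lay within the agomir range, and the log2 fold change of 0.38 (SE 0.20; from 0.23 without agomir 3 to 0.52 without control 3) had an edgeR adjusted p of 0.807. Atp6v0a2 had means of 12.3 ± 2.23 CPM in the controls and 12.3 ± 2.90 CPM with agomir (SD, n = 4 each).

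Sorting and coat genes were the 1 class with more members higher than lower, 19 against 10 of the 29 tested, a count that turned to 11 against 18 with library totals as the scaling. They summed to 1804 ± 54.3 CPM in the controls and 2096 ± 240 with agomir (SD, n = 4 each), and the ranges of 1742 to 1867 and 1889 to 2358 did not overlap. With library totals alone the ranges were 1804 to 2072 and 1687 to 2265 and overlapped. The 3 members of the class at an unadjusted p under 0.05 were Ap1s1, Ap1m1 and Ap1m2, which encode subunits of an adaptor complex that recruits clathrin at the Golgi. Of the 8 genes of this complex 5 were higher and 3 lower, with a median of 0.07, and the log2 fold changes of the other 5 ran from -0.35 to 0.11. Ap1s1, a small subunit, had 59.6, 85.5, 149.7 and 156 CPM in the controls and 231, 141, 303 and 165 CPM with agomir. Agomir 1 and agomir 3 stood out, and controls 3 and 4 lay above agomir 2. The means of 113 ± 47.7 against 209.9 ± 72.9 CPM (SD, n = 4 each) gave a log2 fold change of 0.90 (SE 0.32), with an edgeR unadjusted p of 0.0167 and an edgeR adjusted p of 0.678. Ap1m1, a medium subunit found in most cells, had 17.5, 11.7, 26.8 and 14.7 CPM in the controls and 22.2, 27.9, 36.3 and 24.01 CPM with agomir. Control 3 was the only control above an agomir library. For Ap1m1 the log2 fold change of 0.64 (SE 0.27) had an edgeR unadjusted p of 0.0332 and an edgeR adjusted p of 0.746. Ap1m2, the medium subunit of epithelial cells, had 58.7, 78.4, 76.7 and 71.5 CPM in the controls and 148, 109, 122 and 73.5 CPM with agomir. Agomir 4 was the only agomir library within the control range. For Ap1m2 the log2 fold change of 0.66 (SE 0.21) had an edgeR unadjusted p of 0.00872 and an edgeR adjusted p of 0.678.

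Markers of the trophectoderm, an epithelium, differed between libraries as well: the summed CPM of its 5 markers, all detected, ran from 1742 to 3442 in the controls and from 1950.0 to 6836 with agomir, the highest in control 2 and agomir 3, most of it from Krt8 and Krt18. All 5 had a mean that was higher with agomir, with log2 fold changes of 0.45 to 0.68 and groups that overlapped, and Gata3 and Tfap2c had edgeR unadjusted p of 0.017 and 0.0211 (adjusted p of 0.678 and 0.689). The 3 inner cell mass markers summed to 117 to 245 CPM in the controls and 103 to 185 with agomir, with log2 fold changes of -0.55 to -0.33, and the 4 primitive endoderm markers to 120.1 to 180.3 and 116 to 177. The part of these markers in the values of the adaptor genes was not tested. The most abundant coat genes were Cltc, the clathrin heavy chain, and Clta, a light chain. Cltc had 478, 427, 382 and 432 CPM in the controls and 529, 436, 443 and 439 CPM with agomir. Agomir 1 was the highest and the other 3 agomir libraries lay within the control range. For Cltc the log2 fold change of 0.10 (SE 0.16; from 0.03 without agomir 1 to 0.16 without control 1) had an edgeR adjusted p of 0.928, and with library totals as the scaling its sign turned, at -0.0070. Clta had 162, 273, 154 and 168 CPM in the controls and 192, 199, 411 and 190.3 CPM with agomir. Agomir 3 and control 2 stood above all others, as they did in Cdx2, Krt8 and Krt18 but not in Gata3 and Tfap2c. For Clta the log2 fold change of 0.39 (SE 0.28; from 0.04 without agomir 3 to 0.62 without control 2) had an edgeR adjusted p of 0.836. Ap3m1, of the adaptor that brings membrane proteins to lysosomes, had 274, 221, 311 and 316 CPM in the controls and 379.6, 291, 311 and 349 CPM with agomir. The groups overlapped, and the log2 fold change of 0.25 (SE 0.17; from 0.15 without control 2 to 0.31 without control 4) had an edgeR adjusted p of 0.831.

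**Figure D3:**
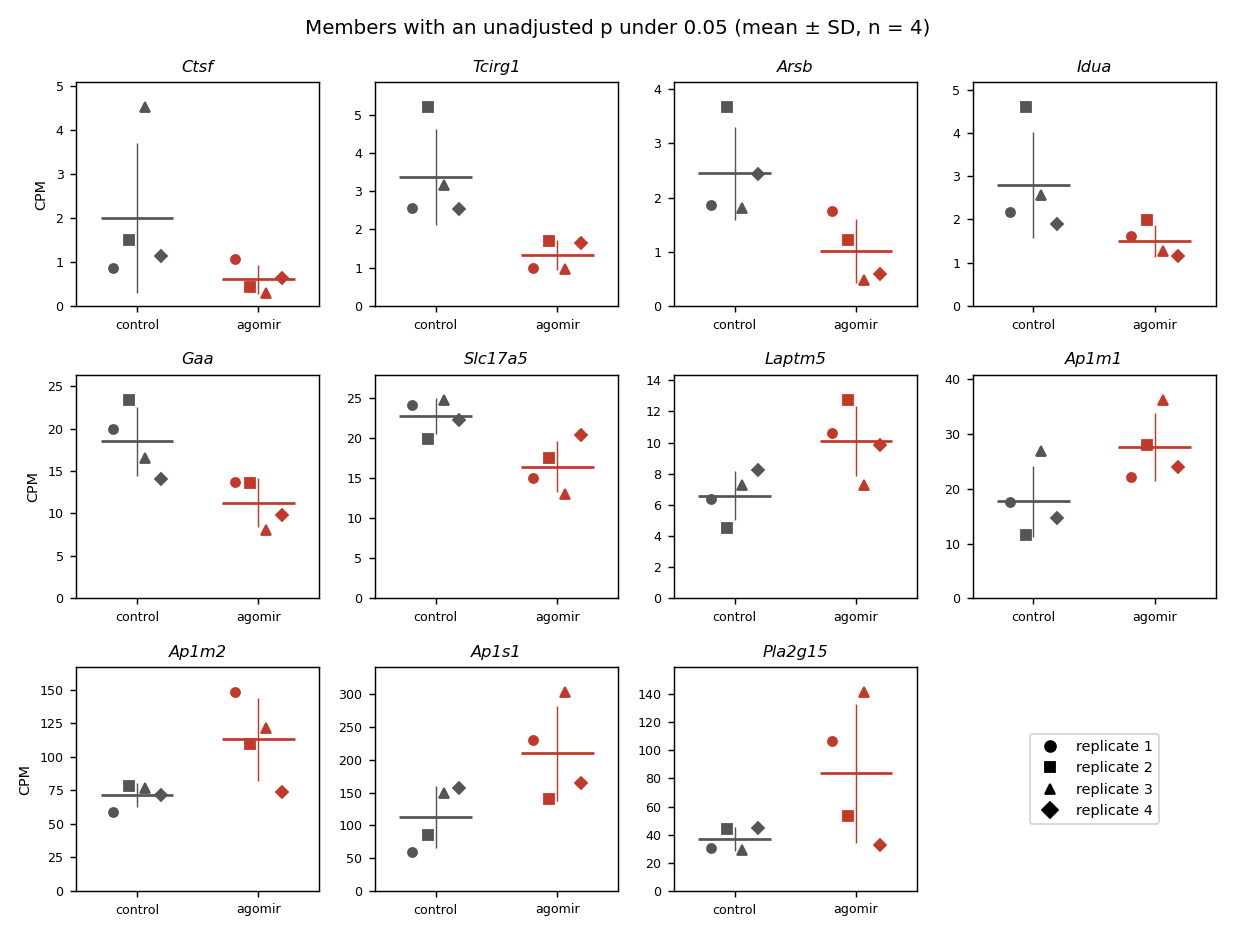
CPM (y axis, linear from 0, 1 panel a gene) of the 11 members at an unadjusted edgeR p under 0.05, with the 4 controls and 4 agomir libraries as points, a bar at each mean and a line of 1 SD to each side. The points of Tcirg1, Gaa and Arsb do not overlap between groups (those of Gaa do with library totals as the scaling), and Pla2g15 is highest in agomir 1 (107) and agomir 3 (141).

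Single libraries stood out across the members. Control 3 held the highest value of 23 of the 115 tested members (20.0%), against 11.6% of all genes, and agomir 1 of 25 (21.7%), against 13.2%. Agomir 3 held the lowest value of 29 (25.2%), against 16.6%, and control 2 also of 29, against 21.6%. The members highest in control 3 included 4 of the 8 tested cathepsins and 6 of the 19 glycosidases. Those highest in agomir 1 included 7 sorting and coat genes. Relative to each gene's mean over the libraries, the median cathepsin in control 3 lay 0.38 higher on the log2 scale and the median glycosidase 0.35 higher.

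**Figure D4:**
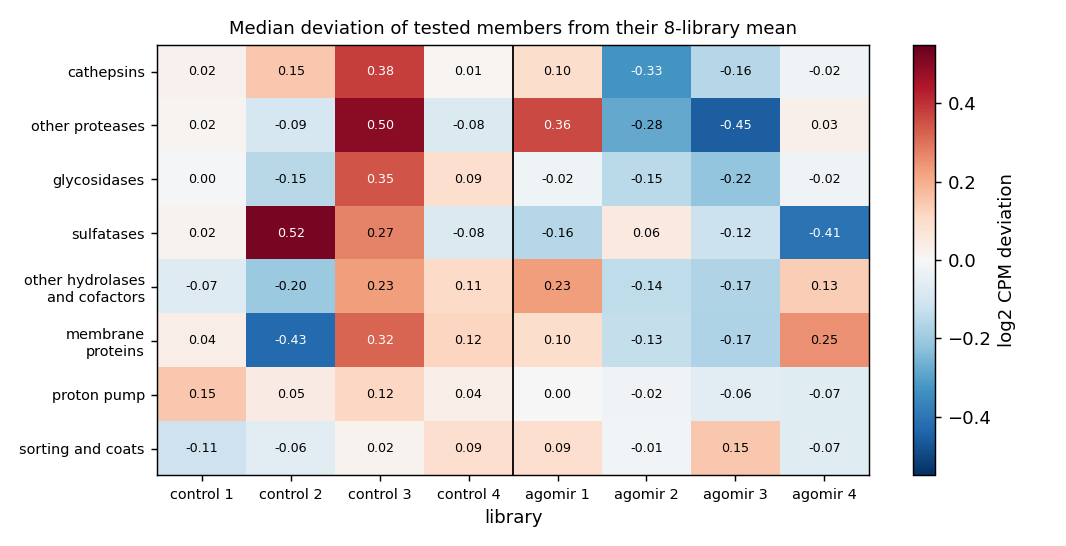
Median over the tested members of each class (rows) of the log2 deviation from the gene's mean over all 8 libraries (columns; colour and printed value). Control 3 is above 0 in every class, from 0.02 for sorting and coat genes to 0.50 for other proteases, and agomir 3 is below 0 in all but that of sorting and coat genes.

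Control 3 also stood out in genes that were absent or scarce in the other libraries. Ctss, a cathepsin of antigen-presenting cells, had 5.40 CPM there and none elsewhere, and Atp6v0d2, a pump subunit known from osteoclasts, had 3.58 CPM there and none elsewhere. Ctso had 3.16 CPM there, 59.1% of its summed CPM, and Slc11a1, an ion transporter of macrophage phagosomes, 4.84 CPM, or 43.2%. The summed CPM of 5 leukocyte markers was 22.7 in control 3 and 0 to 0.773 in the other 7 libraries, nearly all of it from Lyz2 at 21.7 CPM, while Adgre1 and Csf1r were at 0 in every library and Ptprc had 0.28 CPM in control 3 alone. The part of this in the cathepsin values of control 3 was not tested. Without control 3 the count at an unadjusted p under 0.05 in edgeR was 17 members, 13 higher (background 4.65%) and 4 lower (background 3.62%), and 0 passed the adjusted threshold. Of the 11 above, 8 remained. Ctsf, Idua and Slc17a5 no longer stood among them, while Dnase2a was added as lower and Litaf, Atp6v0a4, Ctsc, Slc11a2, Acp5, Manba, Entpd4 and Entpd4b as higher. Entpd4 and Entpd4b have identical counts, so the same reads enter the 13 and the 17 more than once.

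Markers of the cumulus and granulosa cells that surround the oocyte summed to 24.3 to 72.8 CPM in the controls, highest in control 3, and to 5.09 to 24.3 CPM with agomir. Of the 8 markers 6 stayed under 1 CPM in every library and Cyp19a1 was at 0, so the sum came mostly from Cyp11a1 and Inha. Cyp11a1, a steroid-making enzyme, had 20.5 to 59.6 CPM in the controls and 4.79 to 16.1 with agomir, groups that did not overlap, with a log2 fold change of -1.81 (SE 0.38) and an edgeR adjusted p of 0.362. Inha had 2.78 to 12.1 CPM in the controls and 0 to 11.3 with agomir, groups that overlapped. Its log2 fold change of -1.31 (SE 1.23) had an edgeR adjusted p of 0.874. Among the scarce markers the means of Foxl2, Fshr and Ptx3 were lower with agomir and those of Amh and Has2 higher. The part of this in the lower values of scarce members with agomir was not tested.

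Genes that serve the lysosome outside this annotation were looked at in 4 lists drawn from textbook knowledge. None of their genes had an edgeR adjusted p under 0.05, and 1 in all, Flcn, had an unadjusted p under it. Of the ATP-hydrolysing and accessory pump subunits 10 of 15 were tested, 5 higher and 5 lower, with a median log2 fold change of 0.02. The 2 with the smallest p were Atp6v1f at 402 ± 56.1 against 477 ± 79.7 CPM and Atp6v0e2 at 4.18 ± 1.32 against 2.92 ± 1.04 CPM (SD, n = 4 each). Of 23 genes that control lysosome biogenesis 22 were tested, 11 higher and 11 lower, with a median of -0.01. Flcn, the folliculin through which nutrients keep TFEB out of the nucleus, had 17.8 ± 5.16 CPM in the controls and 11.6 ± 1.16 with agomir, a log2 fold change of -0.62 (SE 0.24) with an edgeR adjusted p of 0.720. Tfeb itself had 3.41, 21.97, 23.8 and 8.59 CPM in the controls and 68.98, 17.3, 23.9 and 15.2 CPM with agomir. Agomir 1 stood above all others and the groups overlapped. For Tfeb the log2 fold change of 1.11 (SE 0.60) had an edgeR adjusted p of 0.810.

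Of 17 genes for the fusion and positioning of lysosomes all were tested, 6 higher and 11 lower, with a median of -0.03. Those with the smallest p were Arl8a, a small GTPase that links lysosomes to motors, at 12.2 ± 2.66 against 8.16 ± 2.72 CPM, and Borcs8, of the complex that recruits it, at 24.0 ± 7.36 against 31.2 ± 0.670 CPM. Cystatins inhibit the cysteine cathepsins, and 5 of 8 were tested, 4 higher and 1 lower, with a median of 0.09. Cst6 had 9.26 ± 2.95 against 12.4 ± 2.25 CPM and Cst7 4.91 ± 2.47 against 3.85 ± 2.16 CPM, and neither was near the threshold, with edgeR adjusted p of 0.827 and 0.928.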

How the data were processed

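Poly(A)-selected libraries of 8 blastocyst pools were sequenced as paired ends, per the labels' protocols. The submitters' processing notes list trimming with fastp 0.18.0, RSEM, DESeq2 1.36.0, StringTie 1.3.1 and the aligner HISAT2 2.1.0 on GRCm39, without saying which tool made which column. The deposited table gives expected counts per gene, made by the authors and not normalized, and FPKM, the authors' values per length and depth. Of 176104 count values 1212 were not whole, none of them among the members, and all were rounded. The table held 0 columns of other samples. The strand setting of the counting is not given in the sources used here, so reads of overlapping genes cannot be told apart.

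Genes passing filterByExpr (count minimum 10, total minimum 15) were fitted with edgeR 4.0.16 (TMM scaling, robust quasi-likelihood test, no covariate) in R 4.3.3, with Benjamini-Hochberg adjustment over all 12366 genes and a threshold of 0.05. DESeq2 1.42.0 and limma 3.58.1 were alternatives, with other scalings, filters at 5 CPM or none, a replicate block, FPKM with pseudocounts of 1 and 0.1, and libraries left out. The fit was tested on simulated counts. Each pair of replicates differed by more than sampling noise, so none was merged. The labels name no pairing, and the main fit did not pair samples by replicate number.

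The members, classes and lists were chosen with earlier results of these data known, so no list was tested. Values in every library are given for Ctsl and Lamp1, for up to 3 members of each class with the smallest edgeR p and up to 3 with the highest FPKM, for members whose groups do not overlap, and for any past the threshold. From the related lists the 2 genes with the smallest p are named. The values of 2 members that this rule picks are not reported here. Deposited values use GRCm39, whereas the sequences and their coordinates come from GRCm38 tables, and no coordinates were converted.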

Additional observations from a re-analysis of the deposited data

Results flagged for a closer look

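Among 78 groups of 4 libraries, 2 for each of 39 genes described in every library, 7 held a library whose gap to its nearest neighbour exceeded Dixon's critical value as a share of the group's range. Chance flags about 1 in 20 groups. Ctsd had 190.2 CPM in agomir 1, with 99.8 as the nearest of the other agomir libraries. Naglu had 1.21 CPM in control 3, with 0.650 nearest. Lgmn had 171 CPM in control 3, with 82.3 nearest among the controls, and 109 CPM in agomir 1, with 78.5 nearest among the agomir libraries. Clta had 273 CPM in control 2, with 168 nearest, and 411 CPM in agomir 3, with 199 nearest. Cltc had 529 CPM in agomir 1, with 443 nearest. In every case the library that stood apart was the highest of its group.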

How the results depend on the processing

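No alternative brought a member past the adjusted threshold. The count of members at an unadjusted p under 0.05 in edgeR was 11 of 115, beside 6.38% of all genes. It was 7 of 91 with a filter at 5 CPM (5.49% of all genes). Without control 2 and agomir 3 it was 6 of 116 (6.13% of all genes). When single libraries were left out it was lowest without agomir 3, at 8 of 116 (6.76% of all genes). It was highest without control 3, at 17 of 115 (8.27% of all genes). The median log2 fold change of the members was -0.19 with library totals as the scaling, where that of all genes was -0.11. It ran from -0.12 to -0.05 when single libraries were left out, that of cathepsins from -0.35 to -0.18, of glycosidases from -0.23 to -0.14 and of membrane proteins from -0.16 to 0.06. With the replicate number as a block, 9 of 115 members and 5.71% of all genes stood at an unadjusted p under 0.05. Of the 9 members 7 were among the 11, and 0 passed the adjusted threshold. Deviations of libraries with the same number correlated at -0.067, -0.057, -0.14 and 0.12. The labels name no pairing, and so few values cannot exclude one. Of the 39 genes described in every library, 32 kept their sign in all alternatives. Sumf1 was at 0.0022 with RLE scaling and 0.0075 in DESeq2, Cltc at -0.0070 with library totals, and Smpd1 and Tpp1 at 0.045 and 0.034 without control 2 and agomir 3. With single libraries left out, Cd63 ran from -0.12 to 0.074, Hexa from -0.20 to 0.21, Lgmn from -0.39 to 0.17, Smpd1 from -0.34 to 0.082, Sumf1 from -0.27 to 0.16 and Tpp1 from -0.30 to 0.050. The cause of these turns was not tested. Depth limits the scarcest members, since 1 CPM stood for 12.9 to 21.5 counts.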
